A study of Homo sapiens with 2 samples.

Results

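The genes described here encode the proteins of the cytosolic ribosome, together with the paralogs that resemble single ribosomal proteins. Members were the protein-coding genes with an RPL, RPLP or RPS symbol followed by a number, plus RPSA and FAU. Kinases of the RPS6K family, RPS27A, genes on chromosome Y, read-through genes and pseudogenes were left out. The rule found 85 of the 60683 genes in the count table: 46 for the large subunit, 31 for the small subunit and 8 paralogs. The cells were HEK293T, a human embryonic kidney line that carries the SV40 large T antigen. FKBP5, an immunophilin that binds HSP90, was stably knocked down in them with short hairpin RNAs. The 2 samples analysed here, FKBP5 knockdown sample 1 and sample 2, share the cell line and the knockdown. Control cells were not analysed here, so what follows gives levels in knockdown cells and differences between their 2 libraries, and no effect of the knockdown.

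Each cytosolic ribosome is built from ribosomal RNA and a single copy of almost every ribosomal protein. Most of these proteins come from a single active gene, whose spliced messenger RNA has been copied back into the genome many times as processed pseudogenes. Their messenger RNAs typically start with a cytosine followed by a run of pyrimidines, the 5′ terminal oligopyrimidine (TOP) motif, through which LARP1 and the kinase mTOR control translation. Growing cells spend a large part of their transcription on these genes.

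The libraries were of unequal depth, with 9997706 counts in sample 1 and 21284648 in sample 2. The labels do not state whether separate cultures were used, and differences between the libraries may be technical. FKBP5 stood at 3.95 CPM (the counts-per-million scale of the deposited values) in sample 1, against 3.52 CPM in sample 2, and without control cells these values do not measure the knockdown. The 6 HEK293 markers were all counted, at a mean of 8.81 CPM (LHX1) to 311 CPM (IGF2BP1). Of 6 blood cell markers 5 were under 1 CPM. Fibroblast and epithelial markers were low, apart from COL1A1 at 59.7 CPM. Intervals below cover counting error only.

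The starts of these genes show the feature that the family is known for. RefSeq promoter sequences (GRCh38.p14) matched 68 of the 85 members. A cytosine at an annotated start followed by at least 4 pyrimidines was found in 47 of the 68, or 69.1%, against 6.33% of 15314 protein-coding genes. Among protein-coding genes outside the family with at least 100 CPM in these cells the share was 9.49% of 1844. The motif was in 46 of 62 subunit genes and in 1 of 6 paralogs, RPL22L1. A looser feature, a run of at least 6 pyrimidines within 5 bases of a start, was in 55 of 68 members (80.9%) and in 27.9% of protein-coding genes. Windows of 40 bases before and 20 after the start are shown for members with a long run and for 5 paralogs above their partners. Capitals mark a pyrimidine run of at least 6 bases at the start. Where a gene has several annotated starts, the one with the longest run is shown.
RPLP0, chr12:120201092-120201151, minus strand: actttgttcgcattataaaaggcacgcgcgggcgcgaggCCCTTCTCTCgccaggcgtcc
RPS19, chr19:41860215-41860274, plus strand: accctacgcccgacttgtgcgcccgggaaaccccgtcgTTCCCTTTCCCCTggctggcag
RPL39, chrX:119791611-119791670, minus strand: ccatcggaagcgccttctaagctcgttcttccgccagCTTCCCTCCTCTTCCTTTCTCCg
RPS10, chr6:34426050-34426109, minus strand: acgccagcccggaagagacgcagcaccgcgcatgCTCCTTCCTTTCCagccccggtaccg
RPL22L1, chr3:170870176-170870235, minus strand: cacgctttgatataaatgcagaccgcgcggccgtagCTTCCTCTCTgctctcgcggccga
RPL22, chr1:6199576-6199635, minus strand: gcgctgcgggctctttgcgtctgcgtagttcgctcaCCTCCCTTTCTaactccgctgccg
RPL36AL, chr14:49620607-49620666, minus strand: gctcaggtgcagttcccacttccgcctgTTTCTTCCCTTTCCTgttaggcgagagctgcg
RPL36A, chrX:101390971-101391030, plus strand: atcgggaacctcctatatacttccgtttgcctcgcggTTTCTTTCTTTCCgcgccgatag
RPS27L, chr15:63157458-63157517, minus strand: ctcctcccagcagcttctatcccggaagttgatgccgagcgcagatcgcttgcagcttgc
RPS27, chr1:153990722-153990781, plus strand: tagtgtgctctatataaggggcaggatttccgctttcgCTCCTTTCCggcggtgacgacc
RPL26L1, chr5:172958689-172958748, plus strand: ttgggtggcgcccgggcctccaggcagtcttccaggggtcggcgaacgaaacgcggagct
RPL26, chr17:8383174-8383233, minus strand: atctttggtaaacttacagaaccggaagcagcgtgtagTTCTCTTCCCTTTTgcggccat
RPL10L, chr14:46651762-46651821, minus strand: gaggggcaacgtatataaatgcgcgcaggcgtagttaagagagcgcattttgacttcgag
RPL10, chrX:154398337-154398396, plus strand: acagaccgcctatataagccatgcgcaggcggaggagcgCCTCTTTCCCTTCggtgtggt

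In these windows the runs of the subunit genes lay across or just beside the start, from 9 bases in RPS27 to 22 bases in RPL39. RPS27L, RPL26L1 and RPL10L had no run of at least 6 bases at the start, while RPL22L1 and RPL36AL had runs of 10 and 15 bases there. Within the whole 300-base promoters, searched on both strands, CCGGAA was in 57.4% of members, 36.1% of the abundant protein-coding genes outside the family (at least 100 CPM) and 26.9% of all protein-coding genes. CTTTCC, which can lie inside a pyrimidine run, was in 47.1% of members, 30.9% of the abundant genes and 32.2% of all protein-coding genes. AAGATGG was in 14.7% of members, close to the 12.9% of the abundant genes, and in 7.95% of all protein-coding genes. TATAAA was in 10.3% of members, 7.48% of the abundant genes and 12.4% of all protein-coding genes. CACGTG was in 7.35% of members, 14.8% of the abundant genes and 10.9% of all protein-coding genes. These are matches of letters and not bound sites. The 46 subunit genes with the TOP start had a median of 1135 TPM (here counts per base of coding length, scaled to a fixed total) and the 16 without it 1353 TPM, values of the same order.

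**Figure D1:**
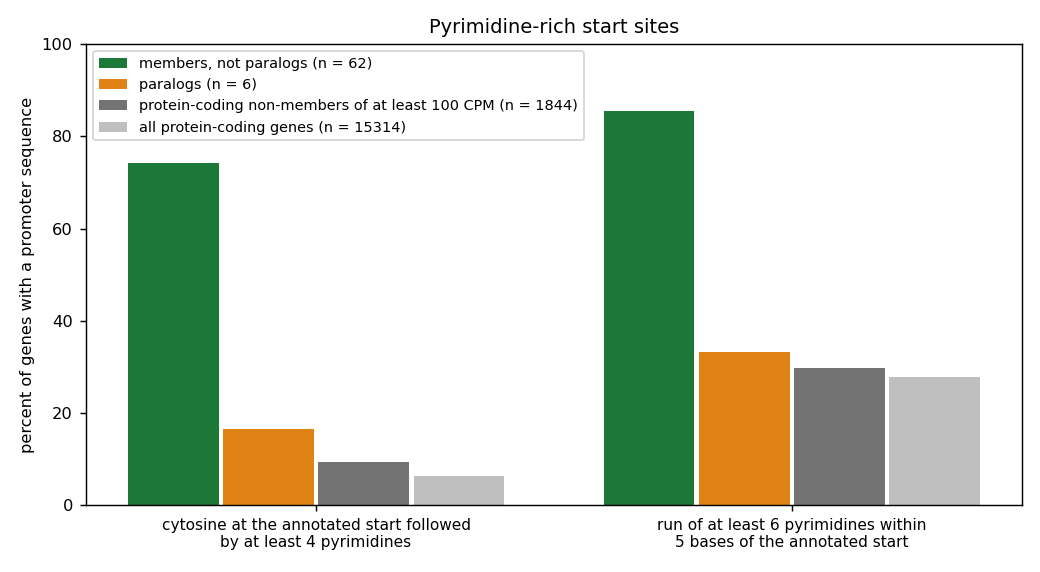
Percent of genes with a pyrimidine-rich annotated start, for subunit genes, paralogs, abundant protein-coding genes outside the family and all protein-coding genes with a promoter sequence. The TOP start was in 46 of 62 subunit genes, 1 of 6 paralogs, 9.49% of 1844 abundant other genes and 6.33% of 15314 protein-coding genes.

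The family held a similar part of both libraries. Members had 5.15% of all counts in sample 1, with a 95% Wilson interval of 5.13 to 5.16. In sample 2 they had 5.07%, with an interval of 5.06 to 5.08. Set against nuclear protein-coding counts only, the shares were 5.65% in sample 1 and 5.66% in sample 2. The median over members was 411 CPM in sample 1 and, in sample 2, 389 CPM, and the median was 23.5 CPM for all 15530 genes whose mean reached 1 CPM. Of the 85 members 68 reached a mean of 100 CPM and 12 reached 1000 CPM. Among the 100 genes with the highest mean CPM 23 were members, and among the top 200 there were 41. The medians of the large subunit (494 CPM, 46 genes) and of the small subunit (490 CPM, 31 genes) lay close together, and the paralogs had a median of 13.9 CPM.

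**Figure D2:**
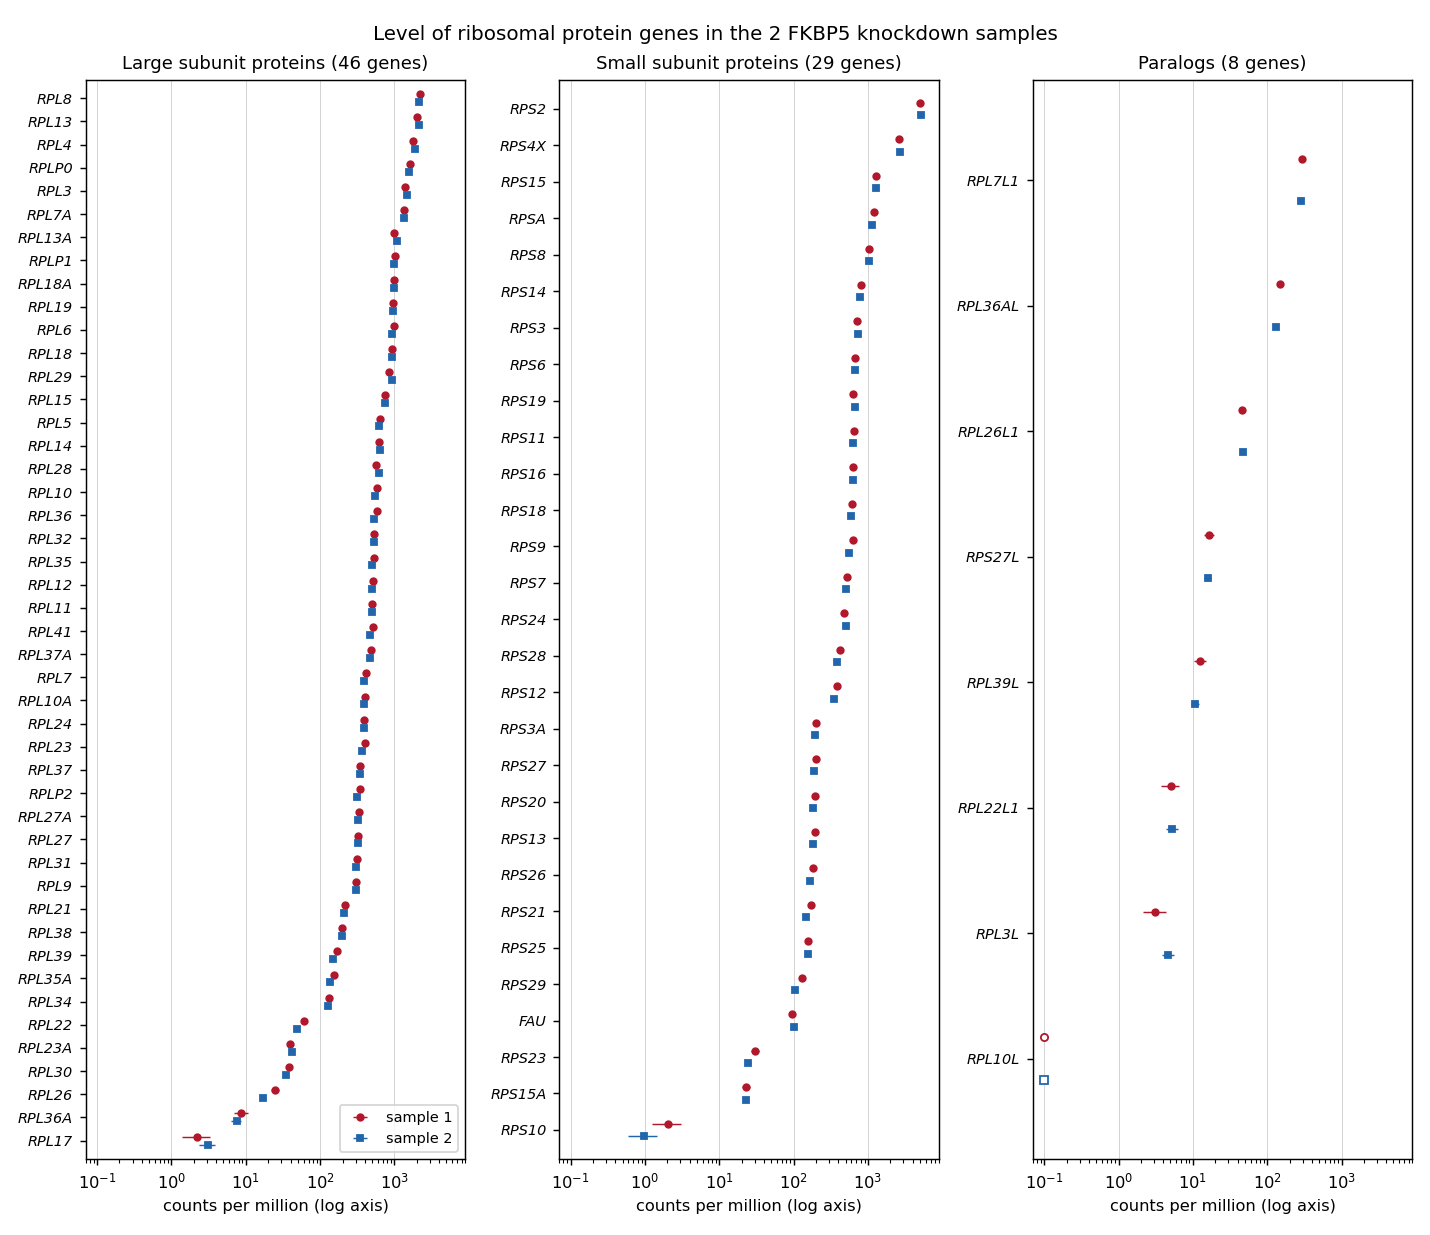
CPM (log axis) of 83 of the 85 members in sample 1 (red circles) and sample 2 (blue squares), with 95% exact Poisson intervals that are mostly narrower than the symbols; open symbols at the left edge mark 0 counts. Samples lie close together for nearly every gene, RPS2 is the highest, and RPS10, RPL17 and RPL36A are the lowest subunit genes.

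Levels of different genes were compared per length, by scaling counts per base of the principal coding transcript to TPM. RPS2, a small subunit protein at the mRNA entry channel, was the highest at 10836 TPM in sample 1 and 10956 TPM in sample 2. RPL13 followed with 6025 and 6241 TPM, RPS15 with 5244 and 5213 TPM, RPL8 with 4883 and 4697 TPM, and RPS4X with 3627 and 3737 TPM, sample 1 first. The order of these 5 genes was the same in both samples. Per transcript length the lowest were RPL10L at 0, RPL3L at 3.74 TPM, RPL22L1 at 4.92 TPM, RPS27L at 5.27 TPM and RPS10 at 5.36 TPM, as means. Neighbours among the highest 5 differed by more than each gene's gap between the samples. Among the lowest, RPS10 had 7.29 TPM in sample 1 and 3.43 TPM in sample 2, a gap that spans RPL3L, RPL22L1 and RPS27L, so their order is not resolved.

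Transcript length is a choice that matters here, because 9 members have an annotated principal transcript more than 5 times as long as its coding sequence. Per coding length, a scale added after the data were seen, RPL41 led with a mean of 7713 TPM. RPL41, the shortest member with 75 coding bases, had 2217 TPM per transcript length. RPS2 was second at 6796 TPM per coding length, followed by RPS4X at 3964 TPM, RPL13 at 3840 TPM and RPS15 at 3411 TPM. RPL37, with a long annotated transcript, had 94.3 TPM per transcript length and 1386 TPM per coding length. Over the 77 subunit genes the median was 1146 TPM per coding length, and 53 of the 77 lay within 2-fold of it.

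The stalk proteins recruit the GTPase factors of translation to the large subunit. RPLP0, which anchors the stalk, had 1640 CPM in sample 1, against 1578 CPM in sample 2. RPLP1 had 1004 and 981 CPM, RPLP2 346 and 316 CPM, and RPL12, a neighbour at the stalk base, 511 and 497 CPM. Per coding length RPLP1 stood at 3406 TPM and RPLP2, its partner in the stalk dimers, at 1125 TPM. RPLP0 was at 1985 TPM and RPL12 at 1195 TPM on the same scale.

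RPL5 and RPL11 bind 5S ribosomal RNA and, outside the ribosome, the ubiquitin ligase MDM2. RPL5 had 647 CPM in sample 1, against 628 CPM in sample 2, and RPL11 had 496 and 492 CPM. Per coding length RPL11 was at 1086 TPM and RPL5 at 840 TPM. Neither passed the test between the libraries described below (adjusted p = 0.226 for RPL5 and 0.889 for RPL11, exact binomial test).

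Proteins near the peptidyl transferase centre and the exit tunnel spanned a wide range of CPM, a scale that does not account for length. The low end rested on RPL17, and the next lowest was RPL39 at a mean of 159 CPM. RPL8 had 2225 CPM in sample 1, against 2158 CPM in sample 2, RPL4, which lines the tunnel, 1792 and 1875 CPM, and RPL3 1403 and 1484 CPM. RPL10, which is added late in maturation, had 582 and 552 CPM, and RPL39, at the far part of the tunnel, 170 and 148 CPM. RPL17 had only 2.22 and 3.07 CPM. At the tunnel exit, RPL19 had 961 and 962 CPM, RPL35 524 and 493 CPM, and RPL31 317 and 305 CPM. RPL23A, which contacts the signal recognition particle, had 39.6 and 41.9 CPM, and RPL26 had 24.9 and 17.2 CPM. RPL17 and RPL26 are among the overlapped genes described below, whose levels are uncertain.

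On the small subunit, RPS3, at the mRNA entry, had 723 CPM in sample 1, against 733 CPM in sample 2. FAU, which encodes the entry channel protein RPS30 fused to a ubiquitin-like protein, had 96.3 and 102 CPM. RPS23, at the decoding centre, had 30.3 and 24.4 CPM, and RPS15, whose tail reaches the decoding site, had 1263 and 1266 CPM. At the mRNA exit, RPS14 had 797 and 791 CPM, RPS28 415 and 385 CPM, and RPS26 184 and 168 CPM. Per coding length RPS28 reached 2268 TPM and RPS14 2057 TPM, while RPS26 had 598 TPM and RPS23 had 74.7 TPM.

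The 6 lowest subunit genes shared one property of position. RPS10, a protein of the small subunit head, had 21 counts in each library, which is 2.02 CPM in sample 1 and 0.961 CPM in sample 2. RPL17 had 23 counts in sample 1 and 67 in sample 2, and RPL36A had 90 and 164. RPL26 had 258 and 375 counts, and RPS15A had 238 and 492. These 5 are among the 6 subunit genes under 25 CPM. Those 6 were also the ones whose principal transcript lay by at least 40%, a limit set after the values were seen, inside exons of another protein-coding gene on the same strand (GENCODE 29).

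RPL17 (chromosome 18, 49488453 to 49492523, minus strand, GRCh38) lay by 91.0% inside RPL17-C18orf32. RPS10 (chromosome 6, 34417454 to 34426125, minus strand) lay by 84.01% inside RPS10-NUDT3, and RPL36A (chromosome X, 101390824 to 101396154, plus strand) by 77.6% inside RPL36A-HNRNPH2. RPL26 lay by 65.3% inside ENSG00000263809, and RPS15A by 41.5% inside ENSG00000260342. The 6 overlapping genes all had 0 counts in both libraries, and 5 of the 6 are annotated as read-through genes. Per coding length the 6 members ranged from 3.54 to 68.4 TPM with a median of 36.3 TPM. The other 71 subunit genes started at 74.7 TPM, for RPS23, and had a median of 1195 TPM. Per transcript length 3 of the other 71 were at or under the highest of the 6, at 91.3 TPM.

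As a set, overlapped genes were also low over the whole table, with read-through genes included. Of the 1177 protein-coding genes in the table with at least 40% of the transcript inside another one's exons, 41.8% had no count in either library, and their median was 0.0686 CPM. Of the other 18733 protein-coding genes 5.78% had no count, and their median was 12.9 CPM. Read-through genes were not left out of the 1177, so that set is not like the 6 members. Of 548 genes annotated as read-through 382 had no count and 20 reached 1 CPM. Outside the family, EEF1G, the gamma subunit of elongation factor 1 and a TOP gene, was at 0 in both libraries. The overlap of EEF1G with other genes is not given here. The sources used here do not give how reads in exons of 2 genes were counted, and its part in these low values was not tested. Levels of these 6 genes are therefore uncertain.

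**Figure D3:**
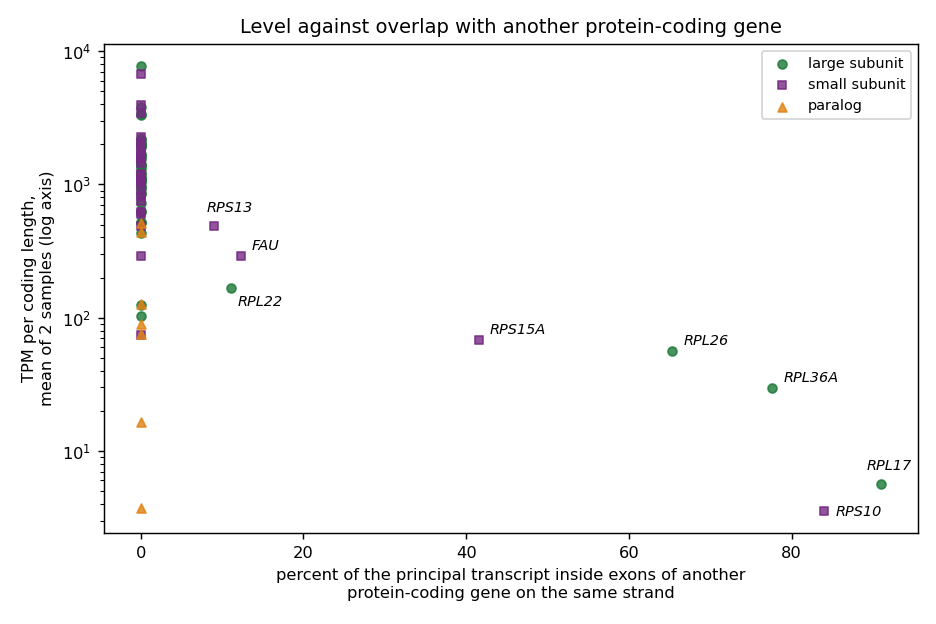
Level per coding length (TPM, log axis, mean of 2 samples) of 82 counted members against the percent of the principal transcript inside exons of another protein-coding gene on the same strand. The 5 members drawn at 41.5% to 91.0% range from 3.54 to 68.4 TPM, and the other subunit genes begin at 74.7 TPM.

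A few other low members had little or no such overlap. RPL30 had 399 counts in sample 1 and 758 in sample 2, and 95.9% of the 50-base stretches of its coding sequence occurred in no other gene. RPS23 had 314 and 533 counts, with 51.6% of coding stretches unique. RPL22, whose transcript lay by 11.1% inside another coding gene, had 621 and 1073 counts. For RPL23A, 11.9% of coding stretches were unique, and its named pseudogenes together had 81.2% of its level.

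Pseudogenes keep much of the parents' sequence, so many stretches of this family occur in more than 1 gene. Of a member's transcript, a median of 74.4% of 50-base stretches occurred in no other gene, and 94.9% of 100-base stretches did. With 50 bases 33 members were at least 80% unique and 24 were under 50%. The coding sequences of RPL41, RPS28, RPL21, RPS27, RPS26, RPL39, RPL36A, RPL17 and RPS10 held no unique stretch of 50 bases. The table names 1585 pseudogenes of 78 members, of which 994 had a count and 73 reached a mean of 1 CPM. Together they held 0.0953% of counts in sample 1 and 0.107% in sample 2. The median member's pseudogenes came to 0.812% of the member itself.

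RPS2P5 stood far above the rest, with 433 CPM in sample 1 and 441 CPM in sample 2. RPL41P1 had 57.7 and 60.7 CPM, and RPS2P46 43.5 and 56.8 CPM. The pseudogenes of RPS2 thus came to 9.85% of the parent and those of RPL41 to 12.4%. For the low members the balance was different. The pseudogenes of RPL17 summed to 270% of the parent, those of RPS10 to 100.4%, those of RPL36A to 95.9% and those of RPL26 to 23.2%. Introns of 28 members host 60 small nucleolar RNAs, and these were almost uncounted, with 12 of the 60 counted and 40 counts in sample 1 and 95 in sample 2 in all.

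Of the 8 paralogs, RPL36AL and RPL26L1 were counted above their partners, RPL7L1 was below but near its partner, 4 were far below, and RPL10L had no count. RPL7L1, a nucleolar protein of ribosome assembly, had 293 and 281 CPM, sample 1 first, against 411 and 389 CPM for RPL7. RPL36AL had 147 and 133 CPM, against 8.67 and 7.504 CPM for RPL36A. RPL26L1 had 46.6 and 47.9 CPM, against 24.9 and 17.2 CPM for RPL26. In both of these pairs the partner is one of the 6 overlapped genes above, so the paralog's lead over it is uncertain.

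RPS27L, known as a p53 target, had 16.4 and 15.8 CPM, against 199 and 189 CPM for RPS27. RPL39L, best known from male germ cells, had 12.5 and 10.7 CPM, against 170 and 148 CPM for RPL39. RPL22L1 had 5.01 and 5.22 CPM, against 59.9 and 49.1 CPM for RPL22. RPL3L, a protein of heart and skeletal muscle, had 3.08 and 4.67 CPM, against 1403 and 1484 CPM for RPL3. RPL10L, a testis gene without introns, had 0 counts in both libraries, where 3 counts would be 0.289 CPM in sample 1 and 0.137 CPM in sample 2.

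Per coding length, RPL36AL made up 94.4% of its pair in sample 1 and 94.7% in sample 2, and RPL7L1 made up 41.0% and 41.3%. RPL22L1 made up 8.08% and 10.03%, RPS27L 7.62% and 7.69%, and RPL39L 6.86% and 6.76%. RPL3L made up 0.217% and 0.310%. RPL26L1 made up 65.2% in sample 1 (95% Wilson interval of its count share 61.7 to 68.5) and 73.6% in sample 2 (71.3 to 75.9), intervals that do not overlap. RPL26 differed between the libraries and RPL26L1 did not pass the test. Per transcript length the share of RPS27L was 0.460% and that of RPL7L1 17.4%, since both paralogs have long annotated ends.

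**Figure D4:**
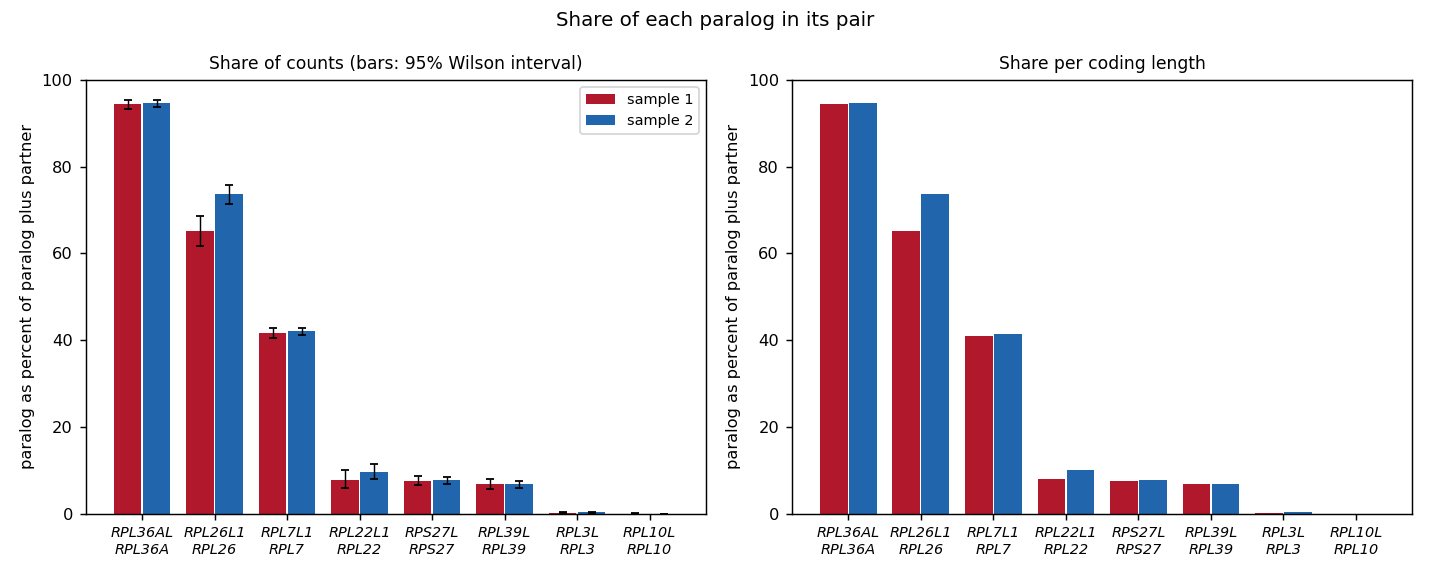
Each paralog as a percent of paralog plus partner, by counts with 95% Wilson intervals (left) and per coding length (right), in sample 1 (red) and sample 2 (blue). RPL36AL, RPL26L1 and RPL7L1 hold large shares, RPL22L1, RPS27L and RPL39L hold less than 11%, RPL3L is under 1%, and RPL10L is at 0.

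How far reads can tell a paralog from its partner depends on how the coding sequences differ. RPL39L and RPL39 are 94.8% identical over 153 bases, with 8 differences, yet the 50-base stretches of RPL39L occurred in no other gene's transcript by 97.0%. RPL36AL and RPL36A are 89.9% identical, with a longest identical run of 60 bases, and RPS27L and RPS27 are 77.8% identical with no run over 20 bases. RPL10L and RPL10 are 89.3% identical, RPL26L1 and RPL26 84.1%, RPL3L and RPL3 75.2%, RPL22L1 and RPL22 66.6%, and RPL7L1 and RPL7 55.5%. Stretches shared with genes other than the partner are a further limit. Of the transcript's 50-base stretches, 47.5% occurred in no other gene for RPL26L1, 79.6% for RPL7L1 and 85.7% for RPL36AL. For the remaining paralogs at least 97.0% did. The coding sequences from GENCODE 29 are shown whole for the RPL39 pair and for the first 120 bases of the RPS27 pair. Capitals mark bases that differ within the pair.
RPL39L: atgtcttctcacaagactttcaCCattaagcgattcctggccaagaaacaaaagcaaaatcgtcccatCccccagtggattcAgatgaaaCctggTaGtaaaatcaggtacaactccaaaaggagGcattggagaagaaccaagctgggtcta
RPL39: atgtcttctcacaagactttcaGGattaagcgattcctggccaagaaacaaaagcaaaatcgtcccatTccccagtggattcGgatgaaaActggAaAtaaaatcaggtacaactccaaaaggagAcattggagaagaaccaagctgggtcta
RPS27L: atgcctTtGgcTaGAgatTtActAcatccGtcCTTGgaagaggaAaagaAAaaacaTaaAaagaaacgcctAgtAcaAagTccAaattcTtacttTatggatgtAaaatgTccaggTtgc
RPS27: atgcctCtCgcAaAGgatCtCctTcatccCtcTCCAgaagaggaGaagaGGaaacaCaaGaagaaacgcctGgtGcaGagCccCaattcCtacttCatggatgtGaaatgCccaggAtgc

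The differences lie along the whole of the printed sequence in the RPS27 pair and are unevenly spread in the RPL39 pair. The longest run without one in the coding sequence is 44 bases in the RPL39 pair, 60 bases in the RPL36A pair and 20 bases in the RPS27 pair.

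The libraries differed little in this family. Log2 ratios are of CPM + 1, sample 1 over sample 2, and 77 of the 84 tested members lay within 1.2-fold. A 2-sided exact binomial test with Benjamini-Hochberg adjustment over 15530 genes called 33 of the 84 members, or 39.3%, against 8.71% of all genes tested. The test compares 2 libraries and not conditions, and it calls small differences in deeply counted genes. Among genes of at least 100 CPM it called 26.4%, and 30 of 68 members. Among genes of at least 500 CPM it called 57.8%, and 17 of 37 members. The members' share was thus not above that of all genes, members included, at both of these minimum levels. A minimum does not match levels. Non-members of at least 100 CPM had a median of 161 CPM, against 399.9 CPM for all 85 members. By direction 24 members were higher in sample 1 and 9 lower, against 4.42% and 4.29% of all genes. At 100 CPM and over, 21 of 68 members were higher and 9 lower, against 374 and 229 of the 2282 genes at that level (16.4% higher). At 500 CPM and over, 8 of 37 members were higher and 9 lower, against 36.7% and 21.1% of genes, so the excess toward sample 1 was not seen at this level. The median log2 ratio was 0.03 for members and -0.01 for all genes tested, and for members it was 0.02 with DESeq2 size factors.

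RPL26 had the largest called difference, at 24.9 CPM in sample 1 against 17.2 CPM in sample 2, a log2 ratio of 0.51 (adjusted p = 0.000344, exact binomial test). It is one of the overlapped genes above, whose levels are uncertain. RPS29, a zinc-binding protein of the small subunit head, had 129 and 104 CPM, a ratio of 0.31. RPS23 had 30.3 and 24.4 CPM (0.30), and RPL22 had 59.9 and 49.1 CPM (0.28). These 4 were the called members beyond 1.2-fold. RPS21 (0.21), RPL39 (0.20), RPL35A (0.17), RPL36 (0.16), RPL36AL (0.14) and RPS9 (0.14) completed the 10 largest called ratios, and all 10 were higher in sample 1. RPS23 and RPL36AL did not pass with DESeq2 size factors or with no filter on low counts.

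The 9 members that were lower in sample 1 were RPL28, RPL13A, RPL29, RPL3, RPS19, RPL4, RPL13, RPS4X and RPS2. RPS19 and RPS2 did not pass when CPM were scaled to column totals (adjusted p = 0.0722 and 0.326, exact binomial test). RPL28 had 556 CPM in sample 1, against 611 CPM in sample 2, a log2 ratio of -0.13, and RPL13A had 988 and 1080 CPM, also -0.13. RPS2 had 5039 and 5139 CPM, a ratio of -0.03. Each of the 9 had over 600 CPM in sample 2. In the stalk RPLP0 and RPLP2 were higher in sample 1, with ratios of 0.06 and 0.13, and RPLP1 and RPL12 did not pass the test. RPL10L was not tested, and RPL36AL was the called paralog among the 7 tested. By subunit, 14 of 46 large subunit genes were higher and 6 lower in sample 1. Of 31 small subunit genes 9 were higher and 3 lower. Of all genes tested, at any level, 4.42% passed as higher and 4.29% as lower. At 100 CPM and over, 374 of the 2282 genes passed as higher and 229 as lower.

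The ratio varied with the length of the coding sequence. Of 30 tested members under 400 coding bases 26 had a ratio above 0, 13 were called higher in sample 1 and 0 lower, with a median log2 ratio of 0.10. Of 30 members of 400 up to 600 bases 20 were above 0, with 5 called higher and 3 lower and a median of 0.02. Of 24 members of 600 bases and over 12 were above 0, with 6 called higher and 6 lower and a median of 0.00. Across the 84 members Spearman's rho of ratio and coding length was -0.45. Non-members of at least 100 CPM gave -0.37 over 2195 genes, and 76.6% of the 64 under 400 bases had a ratio above 0, as did 79.1% of the 148 of 400 up to 600 bases, against 55.4% of the 1983 of 600 bases and over. The genes share their libraries and are not independent.

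**Figure D5:**
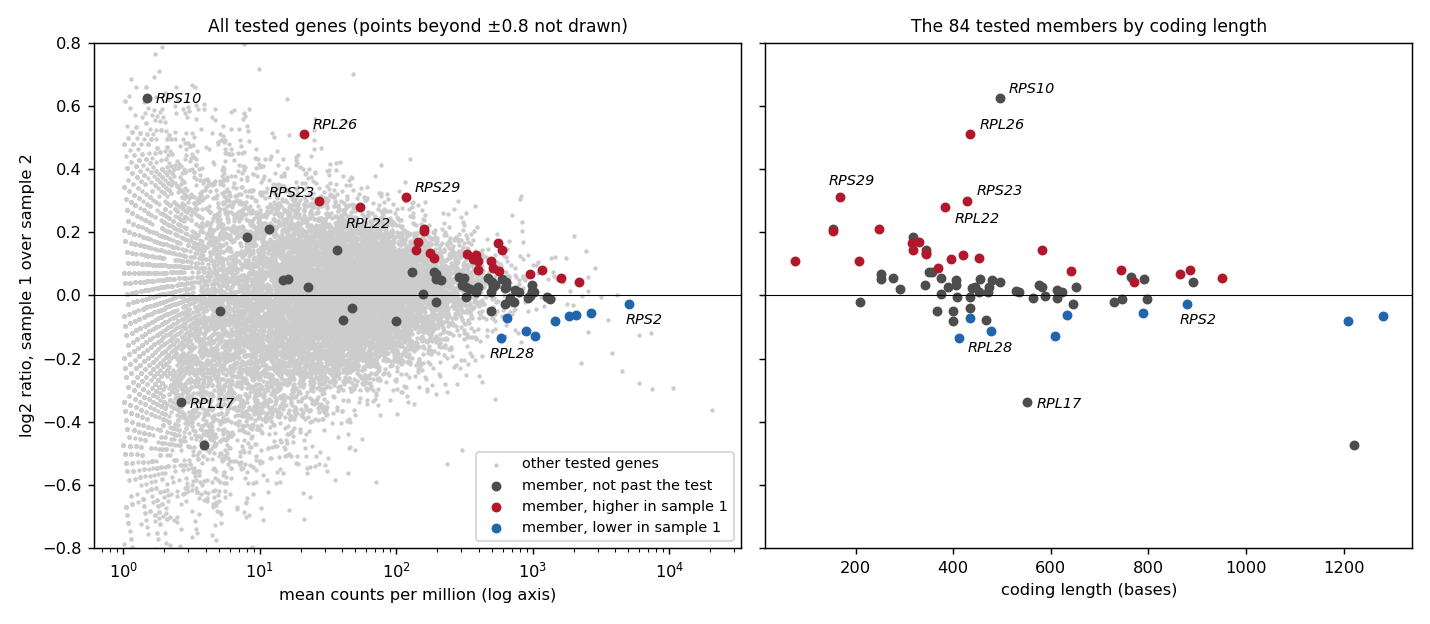
Log2 ratio of sample 1 over sample 2 against mean CPM (left, log axis, other tested genes in grey) and against coding length (right) for the 84 tested members. Called members are red where higher and blue where lower in sample 1. Under 400 coding bases 13 of 30 members are called higher and 0 lower. Of all genes tested, of any length and any level, 4.42% are called higher and 4.29% lower. Of the 2282 genes of at least 100 CPM, of any length, 374 are called higher and 229 lower. Neither set is matched to these members in level.

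The named pseudogenes lay mostly lower in sample 1. Of the 73 named pseudogenes of at least 1 CPM 65 had a lower level in sample 1 than in sample 2, and 58 had a lower ratio than their parent gene. Their median log2 ratio was -0.26, against 0.03 for the parents, and 9 passed the exact binomial test as lower in sample 1 and 0 as higher. Of all genes tested 4.29% passed as lower and 4.42% as higher, and these shares were not computed for genes at the pseudogenes' levels. RPS2P46 had 43.5 CPM in sample 1, against 56.8 CPM in sample 2, and RPL13AP5 had 14.8 and 21.9 CPM. Over the 7172 other genes of 1 to 20 CPM the median log2 ratio was -0.06 and 59.3% were lower in sample 1.

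Genes that work with the family were measured alongside it. RPS27A, which encodes a ribosomal protein fused to ubiquitin, had 335 CPM in sample 1, against 319 CPM in sample 2. Of 20 TOP genes outside the ribosome, 4 of 19 tested were higher in sample 1 and 4 lower, against 4.42% and 4.29% of all genes, or 374 and 229 of the 2282 genes of at least 100 CPM. Among them EEF1A1, the elongation factor that delivers tRNA, had 7005 and 7613 CPM, EEF2, the translocation factor, 5745 and 6267 CPM, and RACK1, a scaffold on the small subunit, 1416 and 1422 CPM. Against the same shares, 1 of 13 regulators of TOP mRNAs was higher, MLST8, a subunit of mTOR complexes, with 327 and 294 CPM. LARP1, which binds the TOP motif, had 425 and 415 CPM, and CNBP had 366 and 357 CPM. Against the same shares, 4 of 14 import factors and assembly chaperones were higher in sample 1 and 0 lower, among them IPO5, an importin, with 255 and 233 CPM. NAP1L1 had 484 and 473 CPM and IPO7 234 and 236 CPM, and neither passed the test.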

How the data were processed

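RNA was extracted with TRIzol and directional total-RNA libraries were made, per the labels' protocols. Reads were handled with STAR 2.7.7a and edgeR on GRCh38, per the submitters' processing notes. The sources used here do not give how reads were assigned to genes, with which strand setting or annotation. The deposited counts are whole numbers per gene, and the deposited CPM are those counts divided by 1 constant per library, which gave the same ratio between libraries as TMM scaling. Values of a few genes are not reported here. Members and gene lists were chosen with earlier results of these data known. Named genes were the paralogs with their partners, the highest and lowest members, the largest called ratios, members of fixed role groups and the 3 highest genes of each companion list.

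Means are over n = 2 samples, with exact Poisson intervals for CPM and Wilson intervals for shares, both at 95%. TPM used the length of the APPRIS principal transcript of GENCODE 29 (the shortest where several tied) or its coding length. The 2-sided exact binomial test compared a gene's counts with the share set by the CPM scaling over genes whose mean reached 1 CPM, with Benjamini-Hochberg adjustment and a threshold of 0.05. On simulated counts with counting error only it recovered 70% of 1.5-fold and 88% of 2-fold changes, with 6 false calls among 15530 genes of which 200 were changed. Reads are not stated to carry molecular identifiers, so intervals cover counting error only. Alternatives were other scalings (TMM from edgeR 4.0.16, DESeq2 1.42.0 size factors), filters, a pseudocount, lengths, denominators and leaving out each sample. Software was Python 3.11.15, scipy 1.17.1, statsmodels 0.14.6, Biopython 1.88 and R 4.3.3.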

Additional observations from a re-analysis of the deposited data

How the results depend on the processing

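With 2 libraries of 1 group there is no test over replicates, and levels, not effects of the knockdown, are what the data hold. No paired analysis was possible because both samples belong to 1 group. The 33 members called became 33 with column totals, 33 with TMM, 27 with DESeq2 size factors, 29 with no filter and 33 with a minimum of 5 CPM, and no called member changed sign. Calls higher and lower in sample 1 were 24 and 9 as reported, 26 and 7 with column totals, and 18 and 9 with DESeq2 size factors. Members with a ratio above 0 numbered 58 as reported, 65 with column totals and 52 with DESeq2 size factors. RPS23 and RPL36AL no longer passed with DESeq2 size factors or with no filter. RPS19 and RPS2 no longer passed with column totals, RPL10 and RPL8 with DESeq2 size factors, and RPL7 and RPS13 with DESeq2 size factors or no filter, while RPLP1 and RPS18 passed with column totals. The median log2 ratio of members was 0.03 as reported, with a pseudocount of 0.1, TMM or either filter, but 0.049 with column totals and 0.018 with DESeq2 size factors. Leaving out a sample gave a median level of 389 to 411 CPM and a share of counts of 5.07% to 5.15%. It gave a median of 1284 to 1334 TPM per transcript length. The median paralog share per transcript length was then 7.36% to 9.16%, without RPL10L, which had no count.

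Other settings moved summaries beyond the spread between samples. The share of counts was 5.11% over both samples, 5.66% of nuclear protein-coding counts and 5.21% with named pseudogenes and read-through genes. Subunit genes had a median of 1305 TPM per transcript length, 520 TPM with the union of exons and 1146 TPM per coding length. The median paralog share, again without RPL10L, was 8.26% per transcript length and 16.0% with the union of exons. The median level was 399.9 CPM for all members and 331 CPM for those at least 80% unique. The median unique share, which comes from the annotation and has no spread between samples, was 94.9% with 100-base stretches. The per-length cause is the length used; for the others the cause was not tested. Coding length, the uniqueness split, the wider share and the scalings and filters of the median ratio were added after the data were seen.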
